A study of Mus musculus with 6 samples.

Results

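Small nucleolar RNAs (snoRNAs) and small Cajal body RNAs (scaRNAs) were compared between mammary tumors that lack the adhesion molecule JAM-A and tumors that have it. All 20 measured H/ACA box snoRNAs, 26 of 31 C/D box snoRNAs and 3 of 3 scaRNAs had a lower mean in the JAM-A−/− tumors. The differences were small, with a median of -0.31 on the log2 scale. The JAM-A+/+ tumor 5370 had the highest value of every H/ACA RNA, and without it 2 of the 14 single-gene calls were left. The messenger RNAs of the 8 core proteins that bind snoRNAs had differences above 0, as had 18 of 24 measured host genes (75%) beside 71.0% of all genes, although some of these signs turned under quantile normalization of the arrays.

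The RNAs were taken as the probe sets of the array that are paired with exactly 1 gene symbol beginning Snora, Snord or Scarna. Where a gene had several probe sets, the brightest on average stood for it. This gave 54 genes from 60 probe sets, out of 19938 genes and 35557 probe sets measured: 20 H/ACA box RNAs (Snora), 31 C/D box RNAs (Snord) and 3 scaRNAs (Scarna). Another 41 probe sets pair with a snoRNA symbol among several symbols and were not counted as members. No member belonged to the imprinted Snord115, Snord116, Snord113 or Snord114 clusters known from brain.

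SnoRNAs are short stable RNAs of the nucleolus that guide the chemical modification of ribosomal RNA by base pairing. H/ACA RNAs, which bind dyskerin, direct the conversion of uridine to pseudouridine, whereas C/D RNAs, which bind the methyltransferase fibrillarin, direct 2′-O-methylation of the ribose. ScaRNAs carry the same boxes, reside in Cajal bodies and guide modification of the small nuclear RNAs of the spliceosome. In mammals most of these RNAs lie in introns of other genes, many of which encode ribosomal proteins and translation factors, and they are released when the intron is spliced out and trimmed.

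The tumors came from mice that express the polyoma virus middle T oncogene from the MMTV promoter, which is active mainly in mammary epithelium. Both groups carried this transgene. In 3 tumors (5333, 5346 and 5347) the mice were JAM-A−/−, and in 3 tumors (5369, 5370 and 5393) they were JAM-A+/+, described in the study's methods as littermate controls. All tumors were resected at an early stage of growth, and the age of the animals is not given in the sources used here. Each tumor's RNA was read on its own Affymetrix Mouse Gene 1.0 ST array. The tissue label of tumor 5347 does not mention the missing JAM-A, while its title and genotype do. It is not stated whether each tumor was taken from a different mouse, so the p-values measure the spread between these tumors.

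The targeted gene F11r read 5.91, 5.55 and 6.53 (log2) in JAM-A−/− and 10.1, 10.23 and 10.47 in JAM-A+/+ tumors, so the array values matched the labels. Luminal keratin Krt8 lay between 12.17 and 12.89 in all 6 tumors. The brain genes Snap25, Syt1 and Stmn2 lay between 4.34 and 5.22. None of 5 luminal, 3 basal, 4 adipocyte, 3 macrophage and 2 lymphocyte markers met the criteria described below. Acta1 of 4 skeletal muscle markers, Pdgfra of 3 fibroblast markers and Pecam1 of 3 endothelial markers met them and were higher in JAM-A−/− tumors, by 1.31, 0.45 and 0.60. The mean deviation of the 4 muscle markers from their own means over the 6 tumors ran from -0.18 to 0.74 in JAM-A−/− and from -0.95 to 0.32 in JAM-A+/+ tumors, with tumor 5393 lowest. Tumor 5369 stood lowest for the adipocyte (-1.41), fibroblast (-0.63), endothelial (-0.60), basal (-0.49), macrophage (-0.42) and luminal (-0.35) markers. Over all genes the mean deviation was also lowest in tumor 5369, at -0.11, and it was highest in tumor 5347, at 0.13. The part of these shifts in the snoRNA values was not tested. In bulk tumor RNA, fewer cells of a type and less RNA per cell cannot be told apart.

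Each probe set was compared between the groups with limma, a linear model that borrows information on the spread from all probe sets. The criteria asked for group means at least 1.3-fold apart and an unadjusted p under 0.05. Differences are JAM-A−/− minus JAM-A+/+ on the log2 scale. Of the 54 genes, 49 had a difference below 0, 4 above it and 1 at 0. Over the whole array 38.7% of probe sets and 28.2% of genes were below 0, and the median difference was 0.05 over probe sets and 0.09 over genes. The medians of the 3 classes were -0.33 for H/ACA, -0.28 for C/D and -0.21 for scaRNAs.

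The criteria were met by 14 of the 54 genes, all lower in JAM-A−/− tumors, 7 H/ACA and 7 C/D. In the same direction they were met by 4.35% of all probe sets and by 0.592% of genes, and in the higher direction by 3.95% of probe sets and 4.73% of genes. No gene of the 54 passed the Benjamini-Hochberg adjustment over all probe sets in limma, where the smallest adjusted p was 0.244. Over the whole array 0.00281% of probe sets passed it. An unadjusted p under 0.05 was found for 14 of the 54 genes and for 10.9% of all probe sets, in either direction. The groups did not overlap for 14 genes, all lower in JAM-A−/− tumors and not all the same as those above, against 6.1% of probe sets and 2.55% of genes in that direction and 9.74% and 12.4% in the other. Without tumor 5370, only Snora2b and Snord85 met the criteria as lower, 2 of 54 beside 3.36% of all probe sets, and Snord118 met them as higher. Without tumor 5393, 24 met them as lower, beside 5.58% of all probe sets.

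**Figure D1:**
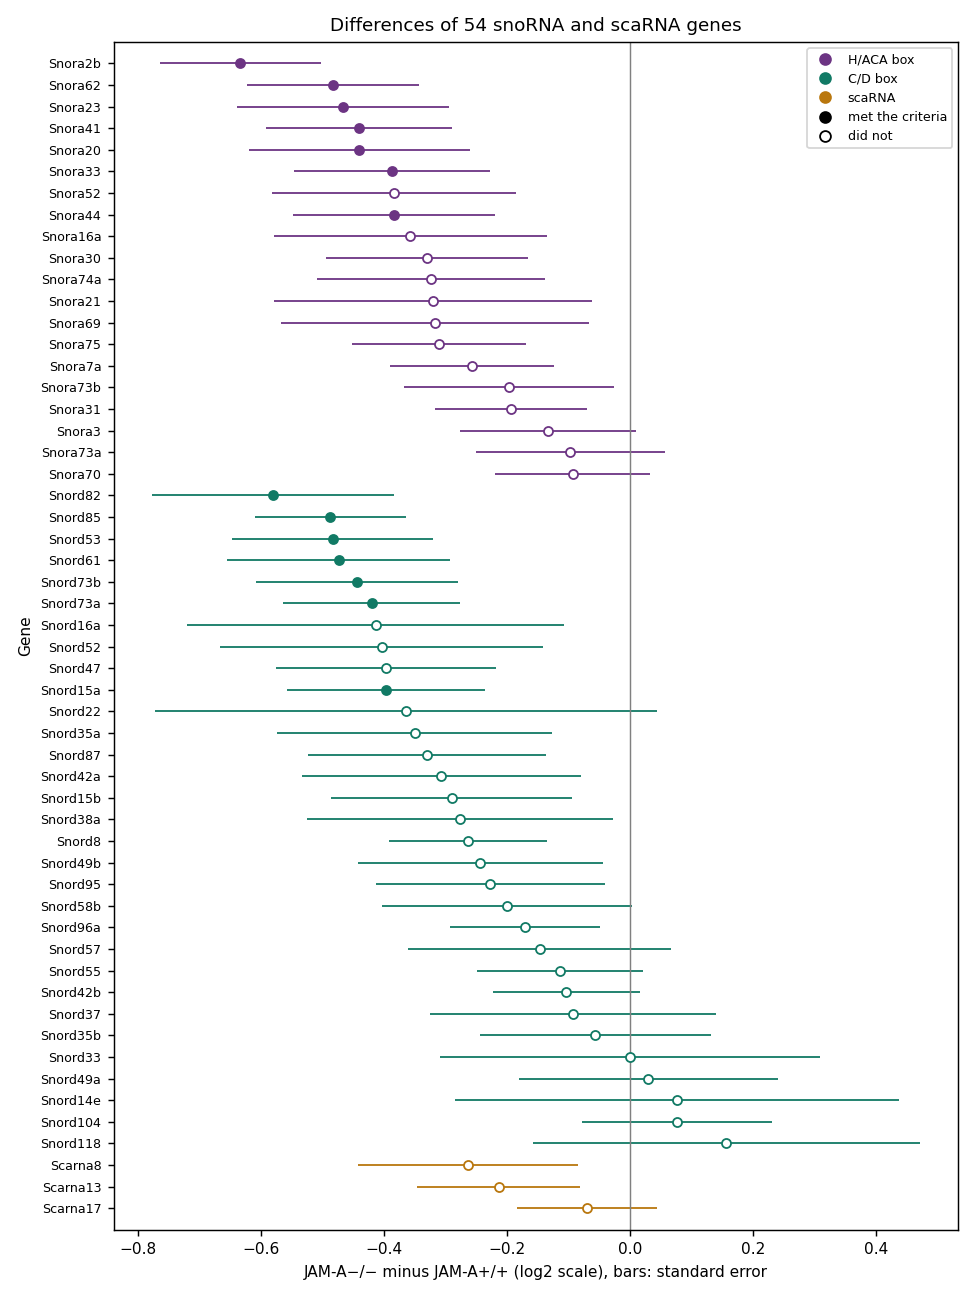
JAM-A−/− minus JAM-A+/+ difference (log2 scale, x axis) of each of the 54 genes (y axis), ordered within class, with its standard error from limma as a bar and filled points for genes that met the criteria. All 20 H/ACA points lie left of 0, as do 26 of 31 C/D points and the 3 scaRNA points.

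Among H/ACA RNAs the lowest difference belonged to Snora2b, a guide RNA that lies within Kansl2, a gene for a subunit of a histone acetyltransferase complex. Its log2 values were 5.92, 5.88 and 5.83 in JAM-A−/− and 6.59, 6.65 and 6.29 in JAM-A+/+ tumors. The JAM-A−/− tumors were nearly level, all JAM-A+/+ tumors were above them, and tumor 5393 was nearest to them. The difference was -0.63 (standard error 0.13, adjusted p = 0.244 from limma), or 1.55-fold lower.

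Snora62, also known as E2, lies within Rpsa, which encodes a protein of the small ribosomal subunit. It had 6.61, 6.57 and 6.40 in JAM-A−/− and 6.92, 7.24 and 6.87 in JAM-A+/+ tumors. The groups did not overlap, and tumor 5370 was the highest. The difference was -0.48 (standard error 0.14, adjusted p = 0.341 from limma). Snora23, within the importin gene Ipo7, had 6.61, 6.69 and 6.41 against 6.95, 7.37 and 6.79, a difference of -0.47. Here too the groups were apart, by a narrow margin between tumors 5346 and 5393.

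Snora20, within the chaperonin gene Tcp1, had 6.25, 6.32 and 6.04 in JAM-A−/− and 6.35, 6.99 and 6.59 in JAM-A+/+ tumors. Snora41, within the elongation factor gene Eef1b2, had 6.15, 6.44 and 6.01 against 6.52, 6.81 and 6.59. Both differed by -0.44, and in both the lowest JAM-A+/+ tumor, 5369, was just above the highest JAM-A−/− tumor, 5346. Snora33, within the ribosomal protein gene Rps12, had 7.32, 7.31 and 7.22 against 7.49, 8.0 and 7.52, a difference of -0.39. The 3 JAM-A−/− values lay close together, and tumor 5370 stood well above all others. Snora44, within the non-coding host gene Snhg12, had 6.54, 6.26 and 6.31 against 6.68, 7.05 and 6.53, a difference of -0.38, and its groups overlapped between tumors 5333 and 5393.

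The other 13 H/ACA RNAs had differences from -0.38 (Snora52) to -0.09 (Snora70) and did not meet the criteria. Snora75 and Snora31 were without overlap between the groups although they missed the criteria, at -0.31 and -0.19. Snora16a, Snora30, Snora74a, Snora21 and Snora69 lay between -0.36 and -0.32, and Snora7a was at -0.26. Snora3, which lies within Rpl27a, was at -0.13. The smallest differences included Snora73a and Snora73b, at -0.10 and -0.20. These are the U17 RNAs, which act in cleavage of the ribosomal RNA precursor rather than as modification guides.

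Among C/D RNAs the lowest difference was that of Snord82, which lies within Ncl, the gene of the nucleolar protein nucleolin. Its values were 6.50, 6.79 and 6.46 in JAM-A−/− and 7.34, 7.40 and 6.75 in JAM-A+/+ tumors. Tumors 5369 and 5370 were high, while tumor 5393 was below tumor 5346, so the groups overlapped. The difference was -0.58 (standard error 0.20, adjusted p = 0.392 from limma), or 1.49-fold lower.

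Snord85 had 5.64, 5.42 and 5.49 in JAM-A−/− and 5.90, 5.98 and 6.13 in JAM-A+/+ tumors. The groups did not overlap, and tumor 5393 was the highest. The difference was -0.49 (standard error 0.12, adjusted p = 0.296 from limma). Snord85 and Snora2b were the 2 members that met the criteria whichever single tumor was left out.

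Snord53, within the ribosome biogenesis gene Wdr43, had 7.07, 6.97 and 6.56 in JAM-A−/− and 7.22, 7.5 and 7.33 in JAM-A+/+ tumors, a difference of -0.48 without overlap. Snord61, within the RNA-binding protein gene Rbmx, had 6.54, 6.93 and 7.12 against 7.55, 7.31 and 7.15, a difference of -0.47. For Snord61 the highest JAM-A−/− tumor, 5347, was almost level with the lowest JAM-A+/+ tumor, 5393. Snord15a, within Rps3, had 7.68, 7.70 and 7.72 against 8.17, 8.35 and 7.77, a difference of -0.40, with tumor 5393 again near the JAM-A−/− tumors.

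Snord73a and Snord73b both lie within Rps3a1, a ribosomal protein gene. Snord73a had 6.35, 6.03 and 6.05 in JAM-A−/− and 6.61, 6.70 and 6.38 in JAM-A+/+ tumors, a difference of -0.42 without overlap. Snord73b had 7.82, 7.36 and 7.27 against 7.82, 7.97 and 7.99, a difference of -0.44. Tumor 5333 was the highest JAM-A−/− tumor for both, and for Snord73b it was level with tumor 5369.

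Among the C/D RNAs that missed the criteria, 19 were below 0, from -0.41 (Snord16a) to -0.06 (Snord35b). The groups did not overlap for Snord8 alone among them, at -0.26. Snord52, Snord47, Snord22, Snord35a, Snord87 and Snord42a lay between -0.40 and -0.31. Snord15b, Snord38a, Snord49b, Snord95 and Snord58b lay between -0.29 and -0.20, and Snord96a, Snord57, Snord55, Snord42b and Snord37 between -0.17 and -0.09.

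The remaining C/D RNAs showed no lower mean. Snord33 was at 0.00, Snord49a at 0.03, Snord14e and Snord104 at 0.08 and Snord118 at 0.16. Snord118 is the U8 RNA, which is needed to process the large subunit ribosomal RNAs and which is the 1 member that no annotated gene spanned. It had 4.60, 4.74 and 4.90 in JAM-A−/− and 4.52, 5.32 and 3.93 in JAM-A+/+ tumors. The highest and the lowest value were both in JAM-A+/+ tumors, and it was the 1 member among the 40% dimmest probe sets of the array. The signs of Snord49a, Snord14e and Snord104 turned under quantile normalization of the arrays.

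Some C/D RNAs varied more within a group than between the groups. Snord22, the U22 RNA of small subunit ribosomal RNA processing, had 7.76, 8.04 and 8.81 in JAM-A−/− and 8.91, 9.11 and 7.68 in JAM-A+/+ tumors. Tumor 5347 was close to the high JAM-A+/+ tumors, and tumor 5393 was the lowest of all, so the difference of -0.36 had a standard error of 0.41. Snord14e, a copy of the U14 RNA that also serves small subunit processing, had 8.83, 9.99 and 9.61 against 9.38, 9.99 and 8.83, where the extremes of both groups were level. The 5 members known to act in cleavage of the ribosomal RNA precursor (Snora73a, Snora73b, Snord14e, Snord22 and Snord118) had a median difference of -0.10, and none met the criteria.

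**Figure D2:**
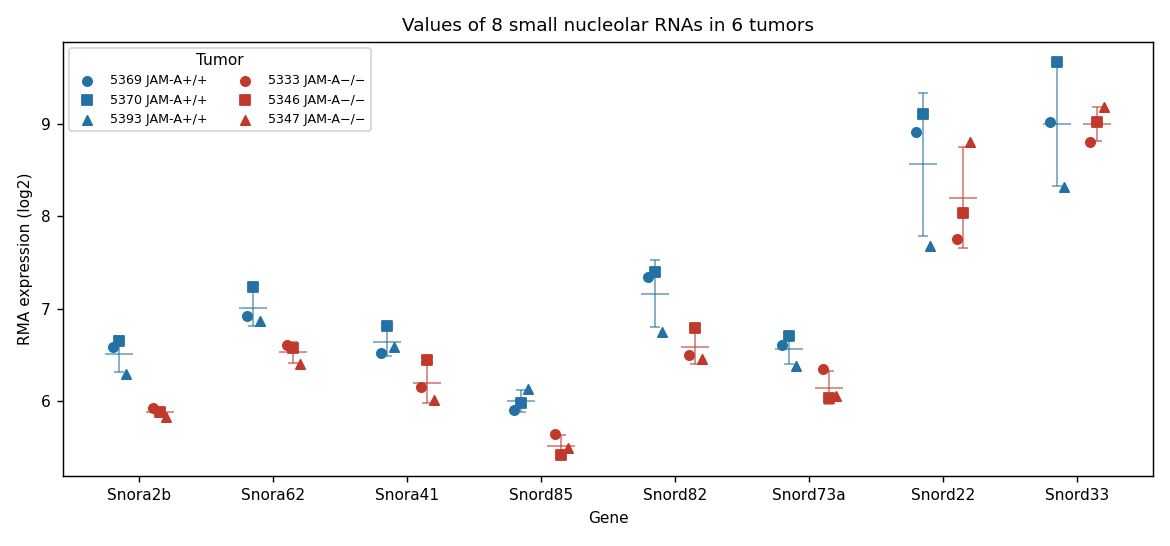
RMA expression (log2, y axis) of 8 snoRNAs (x axis) in each tumor, with JAM-A+/+ in blue, JAM-A−/− in red, a symbol for each tumor, and the group mean ± SD (n = 3). Snora2b, Snora62, Snora41, Snord85 and Snord73a do not overlap between the groups, whereas tumor 5393 lies lowest for Snord22 and Snord33.

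The 3 scaRNAs had differences of -0.26 (Scarna8), -0.21 (Scarna13) and -0.07 (Scarna17), and none met the criteria. Scarna8 had 5.80, 5.48 and 5.89 in JAM-A−/− and 5.75, 6.29 and 5.92 in JAM-A+/+ tumors. Scarna13 had 7.01, 6.96 and 7.21 against 7.32, 7.40 and 7.10. Scarna17 had 11.60, 11.60 and 11.76 against 11.63, 11.78 and 11.76. The groups overlapped for all 3, and Scarna17 differed by less than its standard error of 0.11.

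The classes were then set beside each other tumor by tumor, as the mean deviation of their members from each member's own mean over the 6 tumors. The H/ACA RNAs stood at -0.05, -0.21 and -0.23 in tumors 5333, 5346 and 5347 and at 0.08, 0.43 and -0.02 in tumors 5369, 5370 and 5393. The C/D RNAs stood at -0.12, -0.14 and -0.12 and at 0.15, 0.39 and -0.17. Both classes were highest in tumor 5370, next in tumor 5369 and below 0 in the other 4 tumors. For H/ACA RNAs the lowest JAM-A+/+ tumor, 5393, was just above the highest JAM-A−/− tumor, 5333, whereas for C/D RNAs tumor 5393 was the lowest of all 6.

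In tumor 5370 all 20 H/ACA RNAs and all 31 C/D RNAs were above their own mean, and it held the highest value, ties included, of 20 H/ACA and 25 C/D RNAs. In tumor 5393, 9 of 20 H/ACA and 8 of 31 C/D RNAs were above their own mean, and 8 C/D RNAs had their lowest value there. The lowest value of an H/ACA RNA was most often in tumor 5347 (10 RNAs) or tumor 5346 (8 RNAs). The lowest value of a C/D RNA was spread over tumors 5347 (11), 5333 (9), 5393 (8) and 5346 (5). Tied RNAs (Snora16a, Snord14e and Snord42b) were counted in each tumor that shared the lowest value.

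H/ACA minus C/D, the contrast between the classes within a tumor, was 0.07, -0.07 and -0.11 in JAM-A−/− and -0.07, 0.04 and 0.15 in JAM-A+/+ tumors. The groups overlapped, with means of -0.04 ± 0.10 and 0.04 ± 0.11 (SD, n = 3), so the classes were not set apart by genotype beyond the spread between tumors. The C/D RNAs were more scattered within some tumors: the SD of their deviations was 0.28 in tumor 5393, 0.29 in tumor 5347 and 0.27 in tumor 5333, against 0.18 in the other 3. The SD of the H/ACA RNAs was 0.13 to 0.18 in all 6 tumors.

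**Figure D3:**
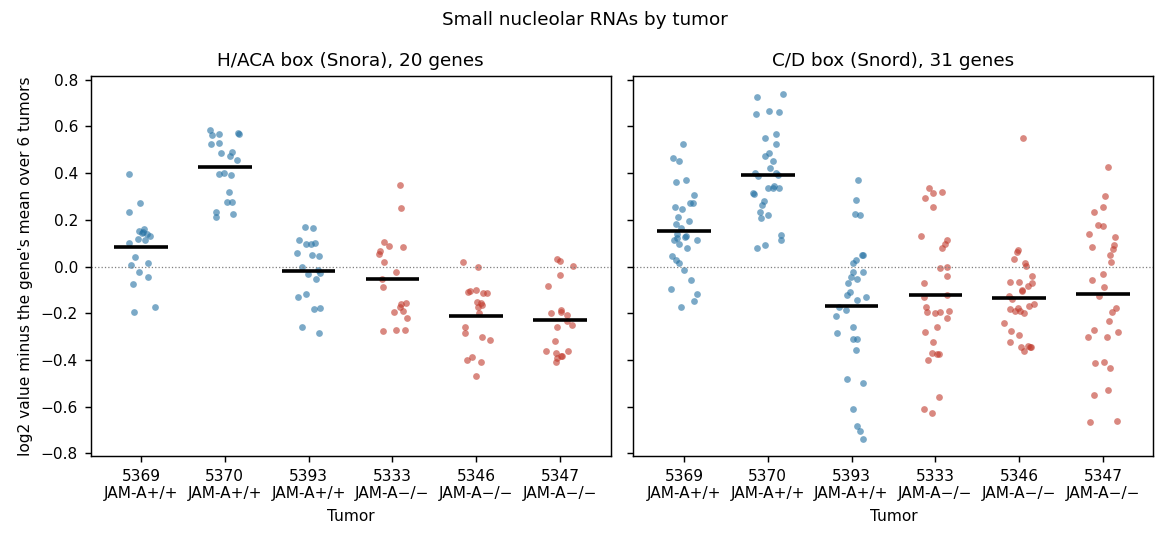
Deviation of each snoRNA from its own mean over the 6 tumors (log2, y axis) by tumor (x axis), for 20 H/ACA RNAs (left) and 31 C/D RNAs (right), with the class mean as a black line. Both classes are highest in tumor 5370, and tumor 5393 sits with the JAM-A−/− tumors for C/D RNAs.

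The other short non-coding RNAs on the arrays varied in how they stood in tumor 5370. All 313 such genes, 300 of them microRNA genes, had a mean deviation of 0.02 there and a median difference of -0.04. By the criteria 22 were lower (7.03%) and 2 higher (0.639%), beside 0.592% and 4.73% of all genes. Differences below 0 made up 58.8% of the 313, beside 28.2% of all genes. The 12147 probe sets that the annotation does not list had a mean deviation of 0.07 in tumor 5370 and a median difference of -0.04. Of these, 56.4% were below 0 and 11.4% lower by the criteria, beside 38.7% and 4.35% of all probe sets. The small sets differed among themselves. The 5 genes with symbols beginning Rnu stood at -0.125 in tumor 5370, and the 1 beginning Rn7s at 0.05. The 2 beginning Rny stood at 0.32 in tumor 5370 but higher, at 0.60, in the JAM-A−/− tumor 5347. Other small sets were high in tumor 5370, as the snoRNAs were. The RNA components of RNase MRP, RNase P and telomerase had a mean deviation of 0.28 in tumor 5370, 0.16 in tumor 5369 and -0.24 in tumor 5393, with differences from -0.22 to -0.06, none of which met the criteria. The vault RNA gene stood at 0.62 in tumor 5370, and the 5S ribosomal RNA gene n-R5s136 at 1.38 in tumor 5370 and 1.37 in tumor 5369. The 41 probe sets with a snoRNA symbol among several were also highest in tumor 5370, at 0.22. Of these, 39 were below 0, but their median difference was only -0.0033. By the criteria 3 (7.32%) were lower, beside 4.35% of all probe sets.

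Host genes were taken as the shortest gene of the RefSeq table that spans the member. A host was found for 53 of the 54 RNAs, in 43 host genes, of which 24 were measured by a probe set with 1 symbol and hold 28 of the RNAs. None of the 24 hosts met the criteria and none had an unadjusted p under 0.05 in limma. Their median difference was 0.12, with 18 (75%) above 0, beside a median of 0.09 and 71.0% above 0 over all genes, and it became -0.02 under quantile normalization of the arrays. In each of the 28 pairs the RNA's difference was below its host's, with a median gap of -0.36. Under quantile normalization over all probe sets this held for 27 pairs, with a median gap of -0.23. The gap to genes other than the hosts was not computed. As the hosts stood near all genes, the gap is not shown to be particular to host and RNA pairs. In 19 pairs the RNA was below 0 and the host above it, and in 8 both were below 0. Over the 28 pairs the 2 differences correlated weakly (Pearson 0.29, Spearman 0.22), as a description of pairs measured on the same arrays.

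Ncl, which holds Snord82 and Snora75, had 11.24, 11.45 and 11.54 in JAM-A−/− and 10.80, 11.22 and 11.39 in JAM-A+/+ tumors. The host's groups overlapped, with a difference of 0.27, while Snord82 and Snora75 were at -0.58 and -0.31. Kansl2, the host of Snora2b, had 9.60, 9.79 and 9.74 against 9.30, 9.72 and 9.70. Its difference of 0.14 turned to -0.04 and -0.05 under the 2 quantile normalizations. Tcp1 and Ipo7, which hold Snora20 and Snora23, were at 0.29 and 0.19.

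Rps3a1 was the host with the lowest difference. It had 10.03, 10.02 and 10.02 in JAM-A−/− and 10.42, 10.12 and 10.30 in JAM-A+/+ tumors, a difference of -0.26 that missed the criteria although the groups did not overlap. Both of its RNAs, Snord73a and Snord73b, met them. Rps3, the host of Snord15a and Snord15b, was at -0.19. Over 10 ribosomal protein hosts the median was 0.14. Among them Rplp2, the host of Snora52, read only 6.31 to 6.69, near the array medians, while the others read 10.02 or more. The 21 RNAs that lie within ribosomal protein genes had a median of -0.31. Of these RNAs 5 (23.8%) were lower by the criteria, beside 4.35% of all probe sets and 0.592% of genes. Hspa8, a heat shock protein gene that holds Snord14e, was at 0.30.

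Each of 10 hosts held 2 members, and none held more. Members of the same host differed by at most 0.35, between Snord33 (0.00) and Snord35a (-0.35) of Rpl13a, a pair known from work on lipid and oxidative stress. Snord49a and Snord49b of 2410006H16Rik were 0.27 apart, and so were the RNAs of Ncl. Snord73a and Snord73b of Rps3a1, as well as Snora16a and Snora44 of Snhg12, were 0.02 and 0.03 apart. These gaps were not tested, and the standard errors of the single differences were 0.12 to 0.31 in these pairs.

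Member minus host, averaged over the 28 pairs in each tumor, was -0.01, -0.25 and -0.36 in JAM-A−/− and 0.36, 0.38 and -0.11 in JAM-A+/+ tumors. Tumor 5393 lay among the JAM-A−/− tumors, so the groups overlapped. Tumors 5369 and 5370 reached a similar level in different ways: the hosts were at -0.20 in tumor 5369 and at 0.03 in tumor 5370. Over all genes these tumors were at -0.11 and -0.04.

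**Figure D4:**
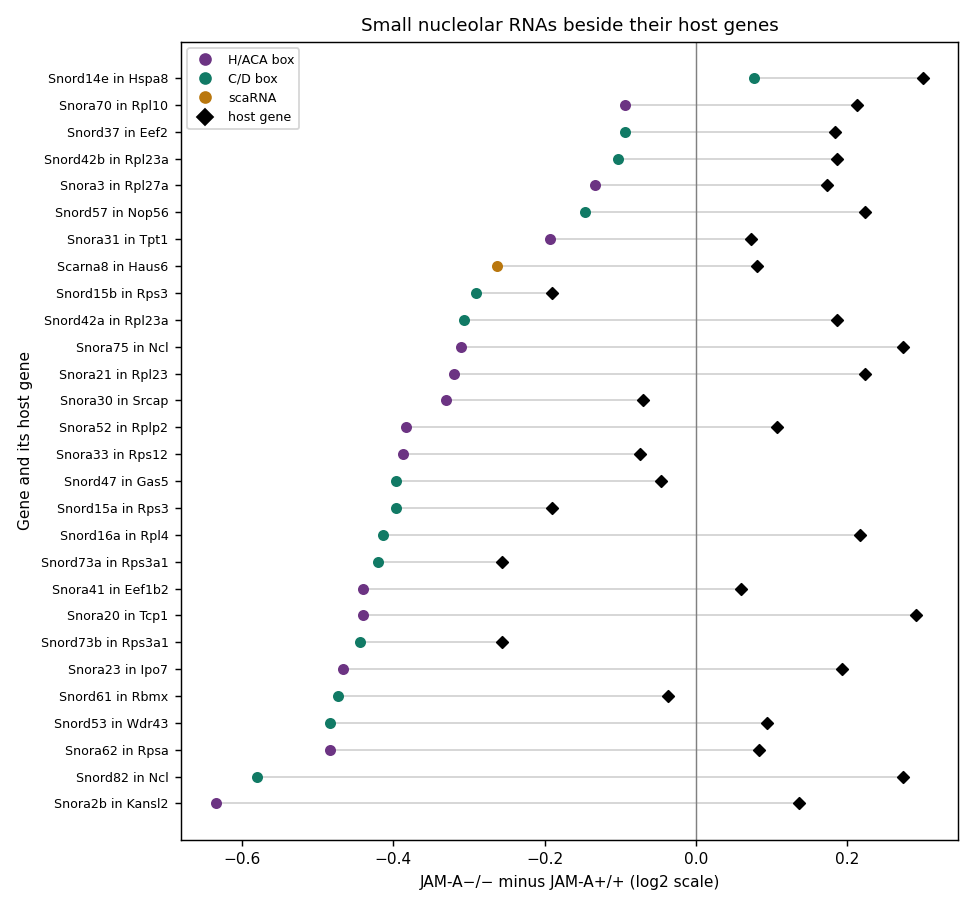
JAM-A−/− minus JAM-A+/+ difference (log2 scale, x axis) of 28 RNAs (circles, coloured by class) and of their host genes (black diamonds), 1 pair per line (y axis). Every circle lies left of its diamond, and 18 of the 24 host genes lie right of 0.

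Many host genes begin transcription within a run of pyrimidines, the 5′ terminal oligopyrimidine tract of translation genes. The first bases of the hosts were therefore read from the RefSeq promoter table (GRCm38.p6), which lists 32 of the 43 hosts. Each window below spans 10 bases before the annotated start and 20 from it, on the transcribed strand, and capitals mark at least 5 C or T bases in a row counted from the first such C within 5 bases of the start. C or T bases before that C, as in Ipo7, were not marked. The first 3 windows are of hosts with such a run whose RNAs met the criteria, and the last 2, without a run, are the hosts of the lowest H/ACA and the lowest C/D RNA.
Snhg12 (Snora44), chr4:132308668-132308697, plus strand: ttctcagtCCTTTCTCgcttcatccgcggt
Ipo7 (Snora23), chr7:110018305-110018334, plus strand: gcttctCTTTCCTTTCgcgccggttgccgc
Tcp1 (Snora20), chr17:12916319-12916348, plus strand: cccctaCTTCCggcgttttcagtttttcgc
Kansl2 (Snora2b), chr15:98534250-98534279, minus strand: gccagagggcaagctgcgcggtgccgcgcg
Ncl (Snord82), chr1:86359436-86359465, minus strand: cggggacggacgcgagctctggttggtgga

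Such a run was present at 15 of 32 hosts (46.9%) and at 21.2% of 27025 genes of the table, searched on the transcribed strand at any listed start. The 20 RNAs in hosts with a run had a median difference of -0.28, with 3 meeting the criteria. The 20 RNAs in hosts without a run had a median of -0.39, with 10 meeting them. The ranges overlapped widely, from -0.47 to 0.08 and from -0.63 to -0.09. In the same direction the criteria were met by 4.35% of all probe sets and 0.592% of genes. Hosts without a run included the ribosomal protein genes Rps3, Rps12 and Rpsa and the elongation factor gene Eef1b2. The split therefore did not separate translation genes from others, and the contrast in counts was not tested. Annotated starts can lie some bases from the true ones, so these letters describe the windows only.

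The proteins that snoRNAs assemble with were read from 8 core genes. All 8 had a difference above 0. Fbl, which encodes the C/D methyltransferase fibrillarin, had 9.09, 9.24 and 9.20 in JAM-A−/− and 8.32, 8.90 and 8.97 in JAM-A+/+ tumors. The groups did not overlap, tumor 5369 was far below the others, and the difference was 0.45 (standard error 0.18, adjusted p = 0.444 from limma), which met the criteria. The other C/D core genes, Nop56, Nop58 and Snu13, were at 0.22, 0.03 and 0.28 and missed the criteria.

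Of the H/ACA core genes, Dkc1, which encodes the pseudouridine synthase dyskerin, had 9.40, 9.34 and 9.56 in JAM-A−/− and 8.99, 9.40 and 9.44 in JAM-A+/+ tumors. The groups overlapped, and the difference of 0.16 missed the criteria. Nop10, Nhp2 and Gar1 were at 0.23, 0.32 and 0.28 and missed them too. The signs of Dkc1 and Nop58 turned under both quantile normalizations, and that of Nop56 under normalization over the listed probe sets.

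With 16 further genes for assembly of these particles and for Cajal bodies, 22 of 24 genes (91.7%) were above 0, with a median of 0.22, beside 71.0% and 0.09 over all genes. Fbl and Ruvbl2, a helicase-like ATPase of the assembly complex, met the criteria as higher, 8.33% of the 24 beside 4.73% of all genes, and none met them as lower. Ruvbl2 had 9.43, 9.53 and 9.43 in JAM-A−/− and 8.80, 9.11 and 9.19 in JAM-A+/+ tumors, a difference of 0.43 without overlap. Wrap53, which brings scaRNAs to Cajal bodies, was at 0.33, and Coil, the gene of the Cajal body scaffold coilin, at 0.10, and both missed the criteria. The mean deviation of the 24 genes was lowest in tumor 5369, at -0.31, and -0.03 in tumor 5370, where the snoRNAs were highest. Over all genes it was -0.11 in tumor 5369 and -0.04 in tumor 5370.

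Of a further list of known snoRNA host genes, non-coding apart from the protein-coding Taf1d, 9 were measured by a probe set with 1 symbol, with a median of -0.05 and none meeting the criteria. Gas5, which holds Snord47, had 12.19, 12.55 and 12.51 in JAM-A−/− and 12.34, 12.52 and 12.53 in JAM-A+/+ tumors, a difference of -0.05. Rian, an imprinted host of C/D RNAs, had 4.82, 4.91 and 4.54 in JAM-A−/− and 5.23, 5.22 and 4.93 in JAM-A+/+ tumors. It was about as dim as the brain genes Snap25, Syt1 and Stmn2. Its difference was -0.37, and it just missed the fold of the criteria, with the groups barely apart. Snhg5 was at -0.21.

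The array reads labelled RNA along each probe set. The RNA was passed over a column kit after Trizol extraction, and such columns retain little of the shortest RNA. Whether a member's signal came from the mature RNA or from the unspliced host transcript cannot be told apart with these probes, and differences in RNA recovery between tumors were not tested.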

How the data were processed

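The authors deposited log2 expression values of 35557 probe sets for 6 tumors (3 JAM-A−/−, 3 JAM-A+/+), made with RMA in Affymetrix Expression Console 1.1 per the submitters' processing notes and rounded to 2 decimals. RMA scales arrays against each other, so the values carry no information on total RNA. The deposited arrays did not share 1 distribution. Their medians ran from 6.23 (tumor 5347) to 6.34 (tumor 5370). Their interquartile ranges ran from 3.27 (tumor 5369) to 3.74 (tumor 5347), and the cause was not tested. The settings of RMA and any filter were not given in the sources used here. No litter, batch or scan date is assigned to single arrays, and the small number of arrays bounds how precise a value can be.

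The log2 values were used as deposited. All probe sets were fitted with limma 3.58.1 in R 4.3.3 (empirical Bayes with default settings, without covariates, p-values adjusted by Benjamini-Hochberg over the whole array), and the step was tested on simulated data. The fold of 1.3 and the unadjusted p under 0.05 are criteria that the entries of the study's signature table meet, and the paper's text states no cut-off. An exact permutation test of 3 against 3 tumors cannot go below p = 0.1. The platform annotation pairs 21789 probe sets with 1 symbol and 1621 with several. Gene symbols, hosts and promoter windows came from RefSeq tables of GRCm38.p6. The tables hold no strand for the members, so hosts were chosen without it, and whether a member lies in an intron was not checked. For Scarna17, Snord118 and Snora30 both probe sets held identical values.

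The members, gene lists and tests were chosen with earlier results of these data known. Genes with their own values are F11r, the scaRNAs, all snoRNAs that met the criteria, the 5 highest and 5 lowest differences and the 3 highest means of each class, hosts and the 8 core proteins. The remaining members, as well as Ruvbl2, Wrap53, Coil, Rian, Snhg5, Gas5 and the cell type markers that met the criteria, were named after their values were seen. The alternatives were other scalings, tests, filters and fold thresholds, other rules for probe sets, and leaving out each tumor.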

Additional observations from a re-analysis of the deposited data

How the results depend on the processing

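The median difference of the 54 RNAs stayed below 0 in every setting run and ran from -0.42 to -0.15 when single tumors were left out. With each tumor left out in turn, the number lower by the criteria ranged from 2 to 24 (H/ACA 1 to 10, C/D 1 to 14), the number higher from 0 to 1, and the core and assembly genes higher from 0 to 5. After centring each array on its median, 8 RNAs were lower (4 H/ACA, 4 C/D), beside 3.40% of all probe sets. An equal-variance test of each probe set alone gave 5 (3 and 2), beside 2.24%. An unequal-variance test gave 4 (2 and 2), beside 1.69%. At a fold of 1.5 the count was 1 of 54 (1 and 0), no larger a share than the 2.56% of all probe sets. Quantile normalization over all probe sets gave 13, beside 4.26%. The same over probe sets listed with a gene gave 21, 12 of them H/ACA, beside 1.80% of those probe sets. With array weights the count was 20, including 1 scaRNA, beside 5.86%. The weights were largest for tumors 5346 (2.37) and 5370 (1.82), and without tumor 5370 only 2 RNAs were lower. No member passed the adjustment in any setting, and the cause of these shifts was not tested. Quantile normalization over all probe sets gave 1 host lower, a host median of -0.021, 0 core and assembly genes higher, and differences of -0.011 for Dkc1, -0.037 for Kansl2, -0.17 for Nop58, -0.0072 for Rpl23a, -0.065 for Snord104, -0.11 for Snord14e and -0.016 for Snord49a. Quantile normalization over the listed probe sets gave 1 host lower, a host median of -0.024, 0 core and assembly genes higher with a median of 0.080, and differences of -0.020 for Dkc1, -0.051 for Kansl2, -0.00028 for Nop56, -0.17 for Nop58, -0.074 for Snord104, -0.11 for Snord14e and -0.069 for Snord49a, which was at -0.24 with array weights. Core and assembly genes higher numbered 1 with equal variances, 0 with unequal variances and 0 at a fold of 1.5. The other short RNAs lower numbered 14 after centring, 14 and 10 with the equal-variance and unequal-variance tests, 12 without the 40% dimmest probe sets and 6 at a fold of 1.5. Their median was 0.02 after centring, -0.10 over the listed probe sets and -0.10 without the dimmest. Leaving out single tumors moved Snord49a from -0.12 to 0.21, Snord57 from -0.33 to 0.0033, Snord14e from -0.21 to 0.40, Snord104 from -0.055 to 0.19, Nop58 from -0.013 to 0.077, Snora73a from -0.21 to 0.038 and Snord118 from -0.17 to 0.52. Between 27 and 28 of the 28 RNAs remained below their host. Counting also probe sets with several symbols, an alternative added after the data were seen, gave a median of -0.19. No paired analysis was possible because the tumor numbers are not shared between the groups. Dim probe sets such as that of Snord118 and 3 arrays per group limit what could be called.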

Other observations

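The median difference was -0.31 for the 38 RNAs in protein-coding hosts, where 13 (34.2%) were lower by the criteria. It was -0.26 for the 15 RNAs in long non-coding hosts, where 1 (6.67%) was lower. Over the whole array 4.35% of probe sets and 0.592% of genes were lower by the criteria. The difference between these groups of RNAs was not tested. The single 5S ribosomal RNA gene measured, n-R5s136, had the lowest difference among the other short RNAs, at -2.08, and its groups did not overlap.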
